A study of Homo sapiens with 18 samples.

Results

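The mRNAs described here are those of the nuclear-encoded respiratory chain: the subunits of complexes I to V, assembly factors named with them, and a few regulators. They were chosen by gene symbol alone, as the array rows (transcript clusters) with a single platform symbol that starts with NDUFA, NDUFB, NDUFC, NDUFS, NDUFV, UQCR, UQCC, COX4I, COX5, COX6, COX7, COX8 or ATP5, or that is a succinate dehydrogenase subunit. Of 75 matching rows, 1 pseudogene row was left out and the brighter row was kept for COX7A2, which had another row of very low signal. This gave 73 genes of the 14232 named by a single symbol: 34 of complex I, 3 of complex II, 8 of complex III, 15 of complex IV and 13 of complex V. By role they are 13 core subunits, 41 accessory subunits, 10 assembly factors, 7 tissue isoforms and 2 regulators. RefSeq lists 102 coding genes that match the rule, and 29 of them, among them SDHB, NDUFS1, UQCRFS1, COX6A1 and ATP5F1B, were not analysed here. The row of NDUFAF2 lies among rows of another chromosome in the array's numbering, so its identity is uncertain.

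The RNA came from U251-MG, an established human astrocytoma cell line. Cells were given 500 µM arsenite, an oxidative stressor that halts translation and makes cytoplasmic stress granules form, or DMSO as vehicle, and were collected 30 min later. The arrays are Affymetrix exon arrays. They measured the input RNA or the RNA recovered by immunoprecipitation (RIP) of TIAR or of G3BP1, RNA-binding proteins that enter stress granules; some labels write Tial for TIAR. The groups are input unstressed, input stressed, TIAR RIP unstressed, TIAR RIP stressed, G3BP1 RIP unstressed and G3BP1 RIP stressed, each with 3 arrays that the labels call biological replicates, 18 arrays in all. All come from the same line, and no immunoprecipitation with a control antibody was analysed here.

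Oxidative phosphorylation passes electrons from NADH through complex I, and from succinate through complex II, to ubiquinone, then through complex III and cytochrome c to complex IV, where oxygen is reduced. Complexes I, III and IV pump protons across the inner mitochondrial membrane, and complex V, the ATP synthase, uses the gradient to make ATP. Most subunits are encoded in the nucleus, translated in the cytosol or at the mitochondrial surface and imported; a few hydrophobic ones are encoded by mitochondrial DNA. Stress granules hold untranslated messenger RNPs, and mRNAs differ in how much of each enters them.

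The transcription factor NRF1 and a start-site element shared with YY1 and the short-leader element TISU are known features of many of these genes, so their letters are shown for members named below. RefSeq promoter windows (GRCh38.p14, 250 bases before to 50 after the gene start) were found for 61 of the 73 members. The element ATGGCGGC, searched on both strands, was in 9 of the 61 (14.8%) against 4.49% of 15843 coding promoters. On the sense strand within the first 50 transcribed bases it was in 7 members (11.5%) against 2.44%, and 5 of those are printed with the element in capitals.
NDUFA9, chr12:4649116-4649145, plus strand: tgtgggaaaagATGGCGGCtgccgcacaat
NDUFS4, chr5:53560652-53560681, plus strand: cctgcagcaagATGGCGGCggtgtcaatgt
UQCR10, chr22:29767388-29767417, plus strand: tgtgaagaaacATGGCGGCcgcgacgttga
UQCRC1, chr3:48609602-48609631, minus strand: gcagctggaagATGGCGGCgtccgtggtct
UQCC2, chr6:33711668-33711697, minus strand: cggggcccaagATGGCGGCcagccggtacc

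The NRF1 core GCGCATGC, or its reverse complement GCATGCGC (the 2 overlap in a palindromic site), was in 12 of the 61 windows (19.7%) against 4.26% of coding promoters. The windows below are those of 4 members described later, with the core in capitals as it reads on the gene's strand.
COX5B, chr2:97645915-97645944, plus strand: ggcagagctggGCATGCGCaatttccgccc
ATP5PF, chr21:25735156-25735185, minus strand: ccactcaaagaGCGCATGCgtacagagcaa
ATP5F1C, chr10:7788144-7788173, plus strand: ggggagcttcgGCGCATGCgcgctgaggcc
SDHD, chr11:112086752-112086781, plus strand: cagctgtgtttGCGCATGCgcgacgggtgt

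The ETS core CCGGAAGT was in 6 windows (9.84% against 6.19%), and the estrogen-related receptor core TCAAGGTCA in 1 (1.64% against 0.24%), that of SDHD. These matches describe the letters of the windows and are not evidence of binding. Members with the NRF1 core and members without it had medians of -1.31 and -1.45 for the log2 difference between TIAR RIP and input in unstressed cells. The medians with and without ATGGCGGC were -2.07 and -1.30, and with and without the ETS core -2.03 and -1.39. These gaps, over 12, 9 and 6 members with a match, were not tested.

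Values are log2 RMA signals, which ran from 1.64 to 14.53 over the table. Members' means over the 18 arrays had quartiles of 8.53, 9.83 and 11.16, above the median of 7.94 over all 22011 rows. A RIP or input value shows the share of an mRNA in that RNA sample and not how much RNA was recovered, and a level belongs to its own probes, so levels are compared between arrays and never between genes. Of the 18 arrays, 2 stood apart from their groups. Input stressed replicate 1 and G3BP1 RIP unstressed replicate 3 each correlated with their group at a mean of 0.980 over all rows. The other 16 arrays were at 0.985 to 0.995. Some values below lose or gain a call, or move by over 1.5 times, without both arrays. Most of these are given both ways for the members described. For the labelled cell type, 13 of 14 astrocyte and glioma markers were on the array, led by VIM with group means of 12.53 to 13.22. The median of these markers was 8.15 to 9.16 over the groups, and the lowest marker read 4.60 to 4.83. Markers of other cell types were not at 0. The neuronal SYT1 averaged 8.54 and 8.83 in the input groups and 10.06 to 10.52 in the RIP groups. CD68 of myeloid cells averaged 8.73 to 10.62, the highest endothelial marker, CLDN5, 8.27 to 8.44, and the highest oligodendrocyte marker, MAG, 7.03 to 7.22. The part of these markers in the results below was not tested.

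In unstressed cells the respiratory chain mRNAs were depleted from the TIAR RIP. Of 73 members, 55 were lower in the TIAR RIP than in input and 2 (COX7B2 and NDUFAF3) were higher, with a median log2 difference of -1.39, that is 2.62-fold lower. Over all rows 23.8% were lower and 16.8% higher, with a median of -0.05. Among the 8875 rows at least as bright as the members' lower quartile, a reading added after the data were seen, 38.4% were lower and the median was -0.09. After arsenite 52 members were lower and 2 (NDUFAF3 and SDHC) higher, with a median of -0.88. The shares were 23.5% and 20.3% of all rows and 33.7% and 36.5% of the brighter rows. The same 50 members were lower in both states, and the share of all rows lower in both was not worked out.

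The array medians show the size of this against the replicate spread. The median over members was 10.63, 10.70 and 10.65 on the unstressed input arrays and 8.93, 8.90 and 8.82 on the unstressed TIAR RIP arrays. After arsenite it was 10.45, 10.70 and 10.61 in input and 8.86, 8.94 and 8.85 in the TIAR RIP. No TIAR RIP array came near any input array.

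**Figure D1:**
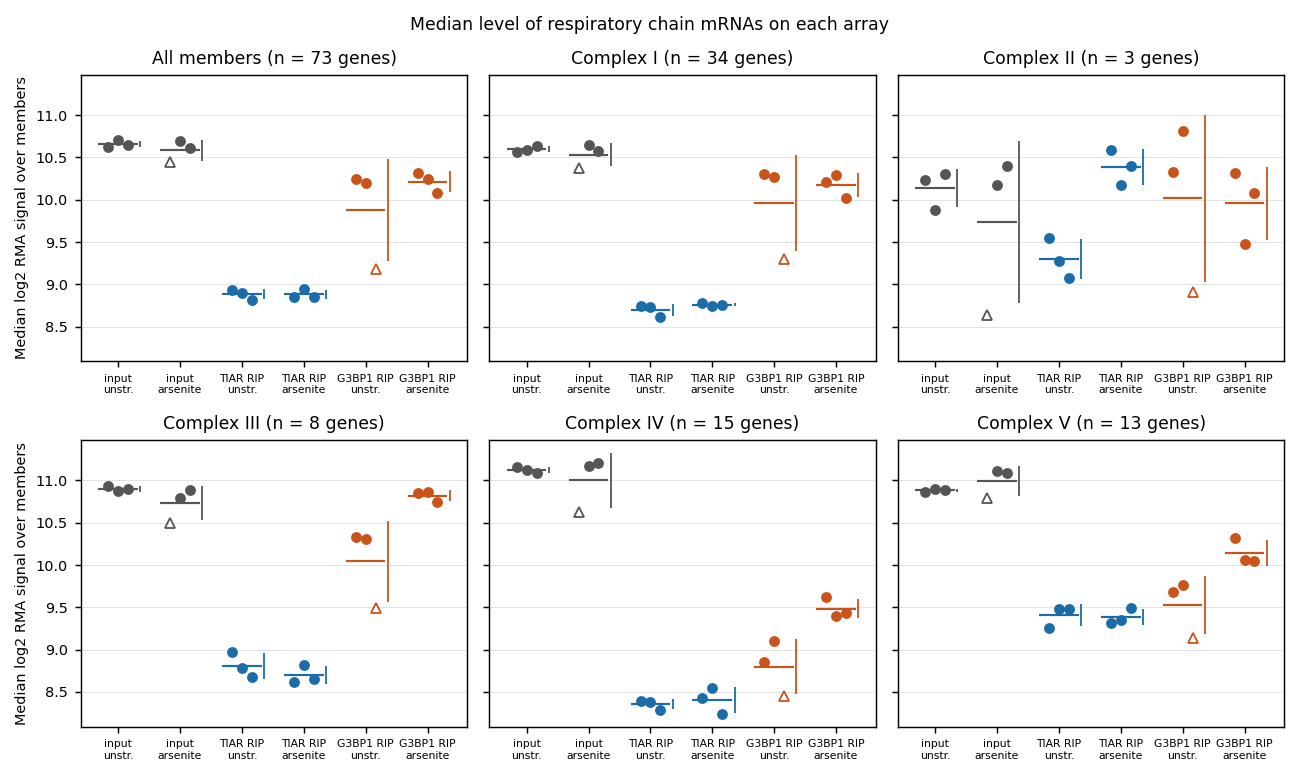
Median log2 RMA signal over the members on each of 18 arrays, for all members and for complexes I to V; points are arrays, horizontal bars group means, vertical lines SD (n = 3), and open triangles the 2 arrays that stood apart. TIAR RIP arrays lie between 8.82 and 8.94 over all members, below all input arrays (10.45 to 10.70).

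G3BP1, the other stress granule protein, gave a smaller and mixed depletion. In unstressed cells 41 members were lower in the G3BP1 RIP than in input and 11 higher, with a median of -0.58, against 19.2% and 20.7% of all rows (30.7% and 33.4% of the brighter rows). Fitted on the 6 arrays of these groups alone, 36 were lower and 5 higher, namely ATP5F1A, NDUFA9, NDUFAF7, NDUFV1 and SDHA. After arsenite 25 were lower and 10 higher, with a median of -0.22, against 15.2% and 29.3% of all rows (16.8% and 48% of the brighter rows). The unstressed G3BP1 arrays had medians of 10.25, 10.20 and 9.18 over members and the stressed arrays 10.32, 10.24 and 10.07, so the third unstressed array lay well below the other 5. Without the 2 arrays that stood apart, 39 were lower and 16 higher in unstressed cells (21.5% and 28% of all rows). After arsenite 33 were lower and 10 higher in that fit (19% and 30.3% of all rows). Median centring of the arrays gave 42 lower and 7 higher in the stressed comparison (25.9% and 24.7% of all rows). Quantile normalization gave 41 lower and 9 higher there (20.5% and 26.5% of all rows). The balance of higher and lower in that comparison depends on the scaling, among the members and over all rows.

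Set against each other, 41 members were lower in the TIAR RIP than in the G3BP1 RIP of unstressed cells and 4 higher. The 4 were ATP5MC2, ATP5PF, NDUFA7 and NDUFAF3. The shares were 27.5% and 19.3% of all rows and 43.5% and 31.5% of the brighter rows, and the members' median was -0.71. Fitted on these 6 arrays alone, 37 were lower and none higher, so all 4 of those calls were lost. After arsenite 45 were lower and 3 higher, namely ATP5MC2, NDUFAF3 and NDUFB5, with a median of -0.70. The shares were 28.7% and 15.6% of all rows and 45.7% and 26.2% of the brighter rows. In unstressed cells 8 members were lower than input in the TIAR RIP and higher than input in the G3BP1 RIP: ATP5F1A, NDUFA10, NDUFA9, NDUFAF1, NDUFB7, NDUFV1, SDHA and UQCRC1. Of these, NDUFA10, NDUFAF1, NDUFB7 and UQCRC1 were no longer called higher in the G3BP1 RIP in the fit on the compared arrays alone. After arsenite 5 were (ATP5F1A, NDUFB7, NDUFV1, SDHA and UQCRC1). These 2 comparisons share the input arrays. The share of all rows with the same pair of calls was not worked out, so these counts describe the members only.

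By complex, the unstressed TIAR RIP medians against input were -1.61 for complex I, -0.41 for II, -1.97 for III, -1.26 for IV and -0.81 for V. In complex I 29 of 34 members were lower, in complex III 6 of 8, in complex IV 8 of 15, in complex V 11 of 13, and in complex II 1 of 3. The share over all rows was 23.8%. For the G3BP1 RIP the unstressed medians were -0.71, -0.12, -1.09, -0.43 and -0.43 in the same order. The stressed TIAR medians were -1.04, 1.37, -1.71, -0.94 and -0.67. Complex II holds 3 genes, so its median is the value of a single gene. That gene was SDHD for the unstressed TIAR RIP and SDHC for the unstressed G3BP1 RIP and the stressed TIAR RIP. In the stressed TIAR RIP SDHC was called higher, SDHA lower (log2 -0.75), and SDHD was not called. Complex II is described below.

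By role, 38 of 41 accessory subunits and 10 of 13 core subunits were lower than input in the unstressed TIAR RIP, with none higher in either set. Over all rows 23.8% were lower and 16.8% higher in this comparison. With the roles used here, all core subunits are in complexes I, II or V, so role and complex cannot be told apart fully. Assembly factors were 5 lower and 1 higher of 10, and tissue isoforms 1 lower (ATP5MGL) and 1 higher (COX7B2) of 7. Signal level moved with these counts: 19 of the 21 members with a mean above 11 were lower, and 3 of the 10 members with a mean below 7. In the G3BP1 RIP of unstressed cells accessory subunits were 33 lower and 4 higher (median -0.87) and core subunits 5 lower and 3 higher (median -0.36). Assembly factors were 3 lower and 3 higher (median 0.08). The shares of all rows were 19.2% lower and 20.7% higher.

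**Figure D2:**
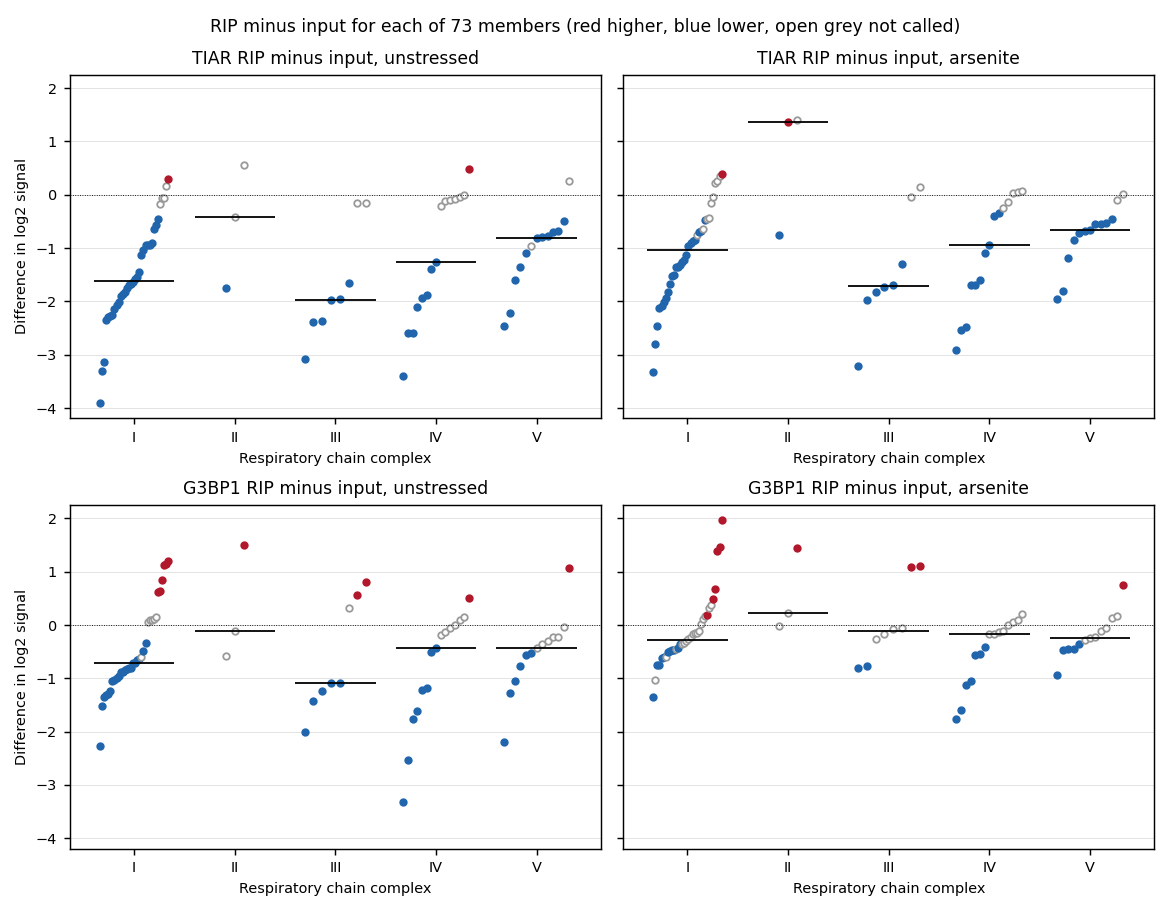
Difference in log2 signal between RIP and input for each of the 73 members (1 point a gene), by complex, in unstressed and arsenite-treated cells; black bars are medians over the members of a complex, red and blue points passed limma's adjusted p under 0.05. Blue points fill complexes I, III, IV and V in the TIAR panels (55 and 52 lower in all), while red points appear above 0 in the G3BP1 panels (11 and 10 higher).

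Complex I oxidises NADH; its hydrophilic arm holds the flavin and iron-sulfur subunits and its membrane arm many small accessory subunits. NDUFA1, a small membrane-anchored accessory subunit, read 11.19, 11.08 and 11.22 on the unstressed input arrays, 7.48, 7.13 and 7.20 in the TIAR RIP and 9.41, 9.24 and 8.05 in the G3BP1 RIP. The 3 groups did not overlap. NDUFA1 was 14.9-fold lower in the TIAR RIP than in input (log2 -3.90, SE 0.27, adjusted p = 2.57e-08), the largest difference of any member there, and 4.81-fold lower in the G3BP1 RIP (log2 -2.27, SE 0.27, adjusted p = 8.05e-06). After arsenite it read 7.51, 7.99 and 7.46 in the TIAR RIP and 9.73, 9.58 and 9.59 in the G3BP1 RIP, both below the stressed input arrays at 10.61, 11.19 and 11.13.

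NDUFB10, an accessory subunit of the membrane arm, separated the 2 RIPs. It read 11.32, 11.34 and 11.37 in unstressed input, 8.03, 8.07 and 7.995 in the TIAR RIP, and 10.71, 10.71 and 10.19 in the G3BP1 RIP. The TIAR RIP was 9.91-fold below input (log2 -3.31, SE 0.13, adjusted p = 2.75e-10) and 5.67-fold below the G3BP1 RIP (log2 -2.50, SE 0.13, adjusted p = 5.95e-10). NDUFB9, another membrane-arm subunit, was 8.77-fold below input in the unstressed TIAR RIP (log2 -3.13, SE 0.19).

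NDUFV1, the core subunit that carries the flavin mononucleotide, was low in one RIP and high in the other. It read 9.87, 9.77 and 9.73 in unstressed input, 7.74, 7.71 and 7.89 in the TIAR RIP and 11.25, 11.02 and 10.45 in the G3BP1 RIP. Every G3BP1 array lay above and every TIAR array below the input arrays. The TIAR RIP was 4.03-fold lower than input (log2 -2.01, SE 0.15, adjusted p = 3.79e-08) and the G3BP1 RIP 2.17-fold higher (log2 1.12, SE 0.15, adjusted p = 1.87e-05). After arsenite NDUFV1 was 2.63-fold higher in the G3BP1 RIP than in input, and without the 2 outlying arrays its log2 difference was 1.35 in both states.

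NDUFB7, an accessory subunit at the membrane arm, was above input in the G3BP1 RIP, and further above it after arsenite. It read 9.59, 9.89 and 9.83 in stressed input and 11.81, 11.59 and 11.79 in the stressed G3BP1 RIP, 3.89-fold higher (log2 1.96, SE 0.21, adjusted p = 2.58e-06). In unstressed cells the G3BP1 RIP arrays were 11.36, 11.12 and 10.29 against 10.40, 10.20 and 10.25 in input, with the third array inside the input range (log2 0.65, SE 0.21, adjusted p = 0.0239; 0.96 without the 2 outlying arrays). The stressed TIAR RIP read 8.21, 8.78 and 8.28, so the 2 RIPs were 9.91-fold apart.

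The other core subunits on the array, NDUFS3, NDUFS7 and NDUFS8, were lower than input in the TIAR RIP. NDUFS8, which binds iron-sulfur clusters, read 11.13, 11.20 and 11.09 in unstressed input and 8.87, 8.90 and 8.78 in the TIAR RIP (log2 -2.29, SE 0.09, adjusted p = 1.74e-10). NDUFS3, the complex I member with the highest mean signal, read 13.18, 13.17 and 13.12 in unstressed input, 11.22, 11.22 and 11.52 in the TIAR RIP and 13.47, 13.51 and 12.92 in the G3BP1 RIP. Of its G3BP1 arrays 2 lay above input and replicate 3, which stood apart, below it. That difference did not pass the test (log2 0.14, SE 0.13, adjusted p = 0.447) but did without the 2 outlying arrays (log2 0.33, SE 0.09, adjusted p = 0.00854).

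Assembly factors of complex I, which build the enzyme and are not part of it, went several ways. NDUFAF3 was higher than input in the TIAR RIP in both states, with 10.86, 11.02 and 10.96 against 10.63, 10.70 and 10.65 in unstressed cells. The difference was small, 1.22-fold (log2 0.29, SE 0.07, adjusted p = 0.00436). NDUFAF1 read 8.47, 8.44 and 8.85 in unstressed input, 8.02, 7.41 and 7.50 in the TIAR RIP and 10.09, 10.27 and 8.85 in the G3BP1 RIP. It was 2.22-fold higher than input in the G3BP1 RIP (log2 1.15, SE 0.31, adjusted p = 0.00709), with the third array level with the highest input array, and 2.77-fold higher after arsenite. NDUFAF7, a methyltransferase that modifies a core subunit, was 2.29-fold higher than input in the unstressed G3BP1 RIP (log2 1.19, SE 0.18). It did not pass the test against input in either TIAR comparison (log2 0.16 unstressed and 0.34 stressed). Its stressed input arrays read 7.27, 7.81 and 7.73, and the stressed difference was smaller without the first, which stood apart. NDUFB5, an accessory subunit, was near input in unstressed cells, with log2 differences of -0.18 in the TIAR RIP and 0.10 in the G3BP1 RIP that did not pass; without the 2 outlying arrays the latter was 0.38 and did (adjusted p = 0.0385). After arsenite it read 11.65, 11.04 and 11.47 in the TIAR RIP and 10.85, 10.91 and 10.59 in the G3BP1 RIP, higher in the former (log2 0.60, SE 0.21, adjusted p = 0.0264). NDUFAF2, the complex I row with the lowest mean, read 2.13 to 3.05 over the 3 unstressed groups and passed none of these tests.

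Complex II is succinate dehydrogenase, which takes electrons from the citric acid cycle; SDHA carries the flavin, and SDHC and SDHD anchor the enzyme in the membrane. SDHA read 10.99, 11.06 and 11.07 in unstressed input, 9.55, 9.27 and 9.07 in the TIAR RIP and 12.82, 12.49 and 12.30 in the G3BP1 RIP. It was the member furthest above input in the unstressed G3BP1 RIP, 2.83-fold (log2 1.499, SE 0.19, adjusted p = 1.58e-05), and 3.34-fold below input in the TIAR RIP (log2 -1.74, SE 0.19, adjusted p = 2.89e-06). The G3BP1 to TIAR gap was 9.45-fold. SDHC, by contrast, read 10.24, 9.88 and 10.30 in unstressed input and 10.99, 10.59 and 10.50 in the TIAR RIP, a difference that did not pass the test (log2 0.56, SE 0.47, adjusted p = 0.396). After arsenite SDHC was higher in the TIAR RIP, at 11.40, 10.67 and 11.25 against 8.64, 10.18 and 10.40 in input (log2 1.37, SE 0.47, adjusted p = 0.0267), and the first stressed input array is the lowest: without the 2 outlying arrays the difference was 0.82 (adjusted p = 0.0222). SDHD was variable, with 4.63, 6.70 and 6.57 in stressed input and 7.66, 6.84 and 7.61 in the stressed TIAR RIP (log2 1.40, SE 0.65, adjusted p = 0.0943), or 0.74 without the 2 outlying arrays. SDHA was lower than input in the stressed TIAR RIP too (log2 -0.75 with all arrays). The median of complex II in the stressed TIAR RIP was 0.74 without the 2 outlying arrays.

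Complex III passes electrons from ubiquinol to cytochrome c. UQCRC1 and UQCRC2 are its large core-protein subunits, which resemble matrix processing peptidases. UQCRC1 read 10.00, 10.06 and 10.12 in unstressed input, 7.68, 7.68 and 7.70 in the TIAR RIP and 10.94, 10.76 and 10.18 in the G3BP1 RIP. It was 5.17-fold lower than input in the TIAR RIP (log2 -2.37, SE 0.16, adjusted p = 1.70e-08) and 1.48-fold higher in the G3BP1 RIP (log2 0.57, SE 0.16, adjusted p = 0.00982) and 2.15-fold above input after arsenite. UQCRC2 was not called against input in either RIP with all arrays, and its G3BP1 result rests on the array that stood apart. In unstressed cells its log2 difference was -0.16 in the TIAR RIP (SE 0.17, adjusted p = 0.519) and 0.31 in the G3BP1 RIP (SE 0.17, adjusted p = 0.164). Its unstressed G3BP1 arrays read 12.80, 12.82 and 11.95 against 12.27, 12.16 and 12.20 in input, and without the 2 outlying arrays it was higher in the G3BP1 RIP (log2 0.60, SE 0.08, adjusted p = 2.19e-05).

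Small subunits and assembly factors of complex III were lower. UQCRQ, which sits beside cytochrome b, read 11.48, 11.45 and 11.58 in unstressed input, 9.29, 9.10 and 8.94 in the TIAR RIP and 9.83, 9.85 and 8.79 in the G3BP1 RIP. Both RIPs lay below input, 5.25-fold and 4.04-fold. UQCC2, an assembly factor for cytochrome b, was 8.45-fold lower than input in the unstressed TIAR RIP (log2 -3.08, SE 0.23, adjusted p = 5.04e-08) and 9.24-fold lower after arsenite. UQCC3, a further assembly factor and the complex III member with the lowest mean signal, was lower than input in both RIPs of unstressed cells (log2 -1.98 and -1.09, each with SE 0.11). UQCC1, the partner of UQCC2 in assembly, showed no called difference in the TIAR RIP and was 1.75-fold higher than input in the unstressed G3BP1 RIP (log2 0.80, SE 0.21, adjusted p = 0.0057) and 2.14-fold higher after arsenite. Its unstressed G3BP1 arrays read 9.84, 9.78 and 8.81 against 8.65, 8.70 and 8.67 in input. The unstressed call was lost in the fit on the compared arrays alone.

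**Figure D3:**
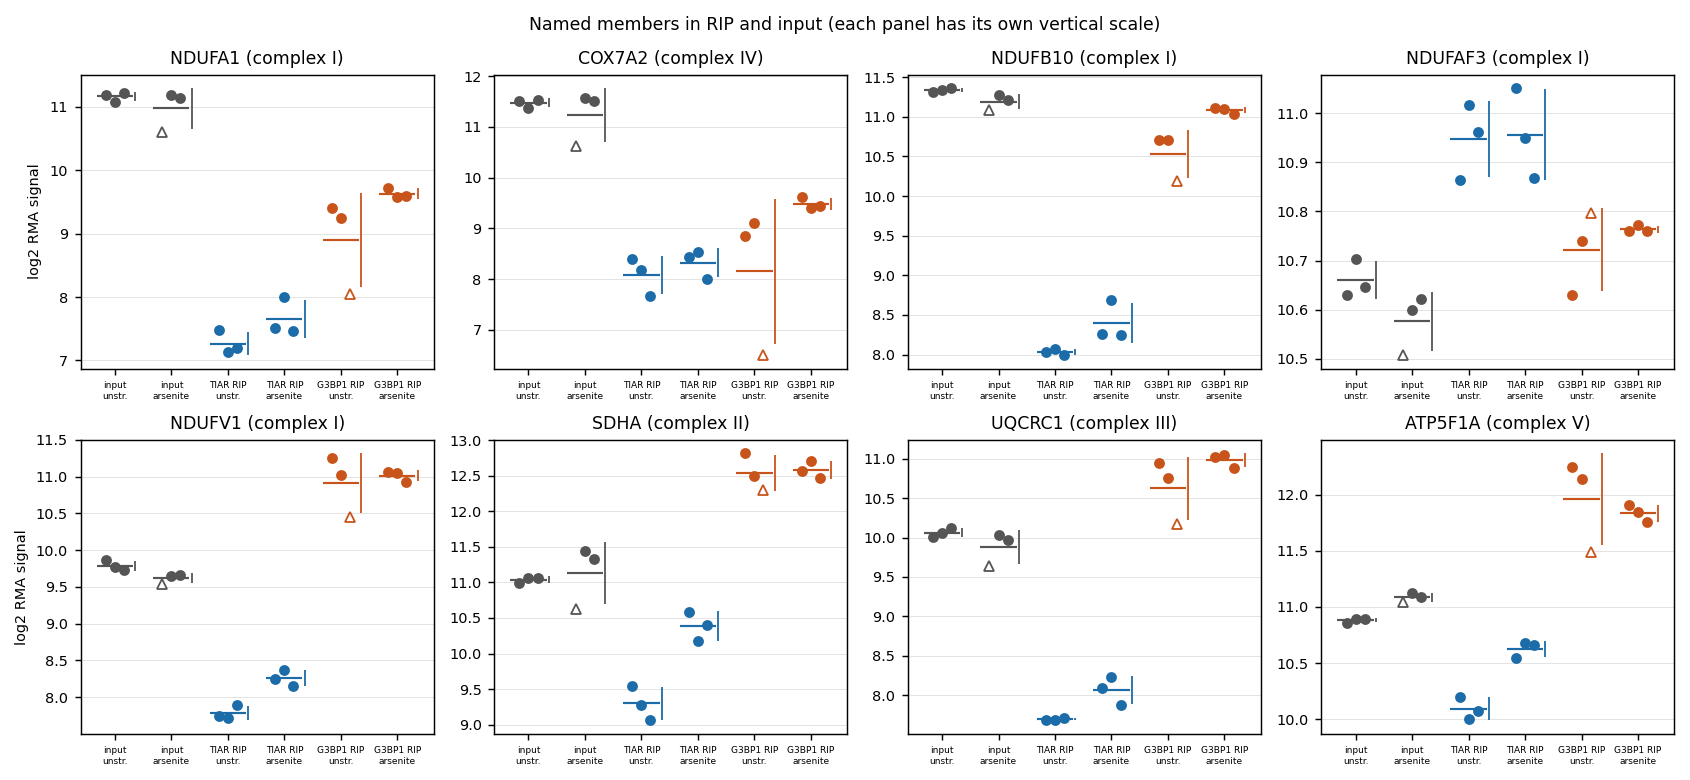
Log2 RMA signal of 8 named members on each array in the 6 groups; points are arrays, horizontal bars means, vertical lines SD (n = 3), open triangles the 2 arrays that stood apart, with a separate scale for each panel. NDUFA1, COX7A2 and NDUFB10 lie below input in the TIAR RIP, NDUFAF3 slightly above it, and NDUFV1, SDHA, UQCRC1 and ATP5F1A lie above input in the G3BP1 RIP and below it in the TIAR RIP.

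Complex IV, cytochrome c oxidase, reduces oxygen; its catalytic subunits are mitochondrially encoded and the nuclear subunits surround them, several in ubiquitous and tissue-specific forms. COX7A2, the ubiquitous form of subunit 7A, read 11.52, 11.37 and 11.53 in unstressed input, 8.39, 8.19 and 7.66 in the TIAR RIP and 8.85, 9.10 and 6.50 in the G3BP1 RIP. It was 10.5-fold lower than input in the TIAR RIP (log2 -3.39, SE 0.49, adjusted p = 3.95e-05). In the G3BP1 RIP its log2 difference was -3.32, and -2.50 without the 2 outlying arrays, since the third G3BP1 array was the lowest. COX8A, a single-span subunit, was lower in both RIPs, with 12.69, 12.59 and 12.80 in unstressed input, 10.61, 10.60 and 10.53 in the TIAR RIP and 10.77, 10.20 and 9.51 in the G3BP1 RIP. It was 5.80-fold lower in the G3BP1 RIP (log2 -2.54, SE 0.23, adjusted p = 4.35e-07), and the TIAR and G3BP1 RIPs did not differ in a way the test could call (log2 0.42, SE 0.23, adjusted p = 0.15; 0.10 without the 2 outlying arrays).

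COX5B, which binds zinc, and COX6C were among the members furthest below input in the TIAR RIP, at log2 -2.59 (SE 0.19) and -2.60 (SE 0.31) in unstressed cells and -2.53 and -2.48 after arsenite. COX6B1 was lower in both RIPs of unstressed cells (log2 -1.89 and -1.61), and so was COX7B (log2 -1.26 and -1.22). COX5A, the complex IV member with the highest mean signal, read 13.25, 13.19 and 13.21 in unstressed input, 11.72, 11.77 and 11.98 in the TIAR RIP and 12.68, 12.88 and 12.80 in the G3BP1 RIP, with no overlap (log2 -1.39 and -0.43, each with SE 0.09). COX4I1, the ubiquitous form of subunit 4, read 9.10, 9.04 and 9.10 in unstressed input, 6.87, 6.99 and 7.57 in the TIAR RIP and 8.69, 8.63 and 8.41 in the G3BP1 RIP. Its TIAR RIP difference was -1.94 and its G3BP1 RIP difference -0.50 (SE 0.19, adjusted p = 0.0446), which was -0.42 and not called without the 2 outlying arrays (adjusted p = 0.13).

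Tissue isoforms gave few calls. COX4I2, COX6B2, COX7A1 and COX8C, forms known from lung, testis or muscle, passed the test in none of the 4 comparisons of RIP with input; without the 2 outlying arrays COX7A1 did in both stressed comparisons (log2 0.19 and 0.20). COX7B2, a testis form, was higher than input in both RIPs of unstressed cells (log2 0.49, SE 0.16, adjusted p = 0.0225 for TIAR, and 0.50, adjusted p = 0.0199 for G3BP1). Its TIAR RIP arrays read 5.20, 4.998 and 5.05 against 4.54, 4.64 and 4.60 in input. Its G3BP1 RIP arrays read 4.79, 5.56 and 4.94, and that call was lost in the fit on the compared arrays alone. The mean of COX7B2 over all arrays was 4.95, the lowest in complex IV. COX6A2, the muscle form of subunit 6A, was lower than input in both RIPs after arsenite (log2 -0.33 for TIAR and -0.42 for G3BP1), the former not called without the 2 outlying arrays (log2 -0.27, adjusted p = 0.0754). ATP5MGL, a variant of the complex V subunit g, was lower than input in the TIAR RIP in both states (log2 -1.10 and -0.84). These 7 rows had means over all arrays of 4.95 to 8.35, and all but COX6A2, at 8.35, lay below the median of 7.94 over all rows. For the dim rows, a signal near background limits how much lower a row can read. COX7A2L, which takes part in joining complexes III and IV, was near input in unstressed cells (log2 -0.11 in the TIAR RIP, adjusted p = 0.625).

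Complex V makes ATP; its catalytic head holds ATP5F1A and ATP5F1B, and a ring of c subunits turns in the membrane. ATP5F1A read 10.86, 10.90 and 10.89 in unstressed input, 10.20, 10.00 and 10.08 in the TIAR RIP and 12.25, 12.14 and 11.49 in the G3BP1 RIP. It was 2.11-fold higher than input in the G3BP1 RIP (log2 1.08, SE 0.14, adjusted p = 2.00e-05) and 1.73-fold lower in the TIAR RIP (log2 -0.79, SE 0.14, adjusted p = 3.19e-04). ATP5F1D, the delta subunit of the stalk, was the complex V member furthest below input in the TIAR RIP. It read 12.01, 11.94 and 11.96 in unstressed input and 9.50, 9.48 and 9.53 in the TIAR RIP, 5.52-fold lower (log2 -2.46, SE 0.12, adjusted p = 1.21e-09).

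The c-ring genes ATP5MC1, ATP5MC2 and ATP5MC3 encode the same mature protein with different import sequences, and their mRNAs differed. ATP5MC1 and ATP5MC3 were lower than input in the unstressed TIAR RIP (log2 -1.35, SE 0.11, and -0.78, SE 0.11). ATP5MC2 was not called there, at 9.11, 9.56 and 9.48 against 9.14, 9.06 and 9.18 (log2 0.25, SE 0.18, adjusted p = 0.308), and it was higher in the TIAR RIP than in the G3BP1 RIP (log2 0.55, SE 0.18, adjusted p = 0.0196). ATP5F1C, the central stalk and the complex V member with the highest mean signal, was lower than input in the TIAR RIP (log2 -0.68, SE 0.16, adjusted p = 0.0023). ATP5PB, the peripheral stalk and the member with the lowest mean, read 6.17, 6.19 and 6.02 in unstressed input and 5.24, 5.05 and 5.22 in the TIAR RIP, which missed the threshold (log2 -0.96, SE 0.37, adjusted p = 0.0505) and passed it without the 2 outlying arrays (adjusted p = 8.63e-06). ATP5MJ, a small membrane subunit, was 4.57-fold lower than input in the unstressed G3BP1 RIP, with arrays of 9.68, 9.77 and 8.03 against 11.42, 11.22 and 11.42. ATP5IF1, which inhibits ATP hydrolysis by the synthase, was lower than input in the TIAR RIP (log2 -0.49, adjusted p = 0.0417) and was not called in the G3BP1 RIP (log2 -0.43, adjusted p = 0.0759; -0.12 without the 2 outlying arrays).

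ATP5PF and NDUFA7 were called in opposite directions between the RIPs in the 2 states. ATP5PF, coupling factor 6 of the stalk, read 9.14, 9.15 and 9.11 in the unstressed TIAR RIP and 8.87, 9.01 and 8.45 in the G3BP1 RIP. After arsenite it read 8.77, 8.91 and 8.85 in the TIAR RIP and 9.23, 9.35 and 9.23 in the G3BP1 RIP. The TIAR RIP was higher in unstressed cells (log2 0.36, adjusted p = 0.0113) and lower after arsenite (log2 -0.42, adjusted p = 0.00388). NDUFA7, an accessory subunit of complex I, did the same at 0.28 (adjusted p = 0.0424) and -0.62 (adjusted p = 1.93e-04), but its unstressed difference was 0.18 without the 2 outlying arrays (adjusted p = 0.165). That of ATP5PF was 0.20 without them (adjusted p = 0.0197). Neither unstressed call held in the fit on the TIAR and G3BP1 arrays of unstressed cells alone.

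The effect of arsenite itself was smaller. In input 1 member changed, ATP5PF, which fell from 9.81, 9.80 and 9.85 to 9.35, 9.43 and 9.38 (log2 -0.44, SE 0.11, adjusted p = 0.013). None rose, against 11.2% of all rows lower and 2.52% higher (22.6% and 3.91% of the brighter rows), and the members' median was -0.09. Under quantile normalization ATP5PF was at -0.22 and not called, and NDUFA9 was called higher. Without the 2 outlying arrays 2 rose (ATP5F1A and NDUFA9) and 2 fell (ATP5PF and COX7A1), against 7.07% and 13.4% of all rows. Leaving out G3BP1 RIP unstressed replicate 3 alone, which enters only through the shared spread, gave 6 calls, and leaving out input stressed replicate 3, input unstressed replicate 1 or G3BP1 RIP stressed replicate 3 gave 2 each.

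In the TIAR RIP 15 members rose with arsenite and none fell, against 6.15% of all rows higher and 5.71% lower (13.5% and 10.8% of the brighter rows), with a median of 0.14. Of the risers, 10 are in complex I, 4 in complex V and 1, SDHA, in complex II; with all arrays none is in complex III or IV. Core subunits were 7 of the 15, out of 13. Without the 2 outlying arrays, neither of which is a TIAR array, 24 rose, 3 of them in complex III and 1 in complex IV. In that fit 3 fell (ATP5PF, COX7A2L and NDUFA8), and over all rows 11.6% rose and 11.3% fell.

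NDUFS4, an accessory subunit of the NADH-oxidising arm, rose most, from 8.93, 8.75 and 8.83 to 10.23, 10.05 and 9.97, 2.37-fold (log2 1.24, SE 0.22, adjusted p = 0.00157). SDHA rose from 9.55, 9.27 and 9.07 to 10.59, 10.17 and 10.40, 2.13-fold (log2 1.09, SE 0.19, adjusted p = 0.00148). NDUFA2, an accessory subunit with a thioredoxin-like fold, rose from 10.48, 10.55 and 10.48 to 11.31, 11.38 and 10.99, 1.65-fold (log2 0.72, SE 0.10, adjusted p = 2.13e-04). The stressed and unstressed TIAR arrays did not overlap for any of these, and each stayed below its stressed input level. NDUFC2 rose 1.71-fold and NDUFB9 1.78-fold.

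In the G3BP1 RIP 19 members rose with arsenite and 2 fell, against 10.4% of all rows higher and 4.08% lower (20.1% and 8.46% of the brighter rows), with a median of 0.23. Complex I held 7 of the risers, complex III 5, complex IV 3 (COX5B, COX6B1 and COX8A) and complex V 4. The third unstressed G3BP1 array bears on these values. Without the 2 outlying arrays 16 rose and 9 fell and the median was 0.10. The shares of all rows in that fit were 11.1% higher and 13.7% lower. ATP5MC3, COX6B1 and UQCC2 were among the rises no longer called. Fitted on the 6 G3BP1 arrays alone, 6 members rose and none fell.

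UQCRQ rose from 9.83, 9.85 and 8.79 to 10.69, 10.68 and 10.60, 2.24-fold (log2 1.16, SE 0.22, adjusted p = 0.00224), and by 0.81 without the 2 outlying arrays (adjusted p = 1.81e-04). NDUFB9 rose from 11.83, 11.80 and 10.85 to 12.73, 12.82 and 12.59 (log2 1.22, SE 0.19, adjusted p = 6.39e-04), and by 0.89 without them. UQCR10, a small subunit beside cytochrome c1, rose from 10.83, 11.10 and 10.88 to 11.89, 11.83 and 11.79 (log2 0.89, SE 0.11, adjusted p = 8.91e-05), and G3BP1 RIP unstressed replicate 3 lay between the other 2 arrays of its group. NDUFA7 rose by 0.87, COX8A by 0.86 and COX5B by 0.84 on the log2 scale; without the 2 outlying arrays COX8A rose by 0.53 (adjusted p = 0.0451). COX7A2 had a larger difference, 1.33, that did not pass the test (SE 0.49, adjusted p = 0.0889); its unstressed G3BP1 arrays ranged from 6.50 to 9.10, and without the 2 outlying arrays the difference was 0.51 (adjusted p = 0.0762).

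Both falls called in the G3BP1 RIP with all arrays were in complex I. No fall was called in the fit on the G3BP1 arrays alone. None was called either without G3BP1 RIP stressed replicate 3, or without unstressed replicate 1 or 2. Without the 2 outlying arrays, when 13.7% of all rows fell, 6 of the 9 falls were in complex I, 1 in complex III and 2 in complex V. NDUFA9, an accessory subunit near the quinone site, fell from 12.50, 12.54 and 12.28 to 12.08, 12.22 and 11.82 (log2 -0.40, SE 0.11, adjusted p = 0.0228). In the TIAR RIP it rose from 11.24, 11.04 and 11.17 to 11.67, 11.78 and 11.89 (log2 0.63, SE 0.11, adjusted p = 0.00122). NDUFAF7 fell by 0.64 on the log2 scale (SE 0.18, adjusted p = 0.0242). The members that rose in both RIPs were ATP5F1D, ATP5PO, NDUFA2, NDUFB9 and NDUFS8, and the share of all rows that did so was not worked out.

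**Figure D4:**
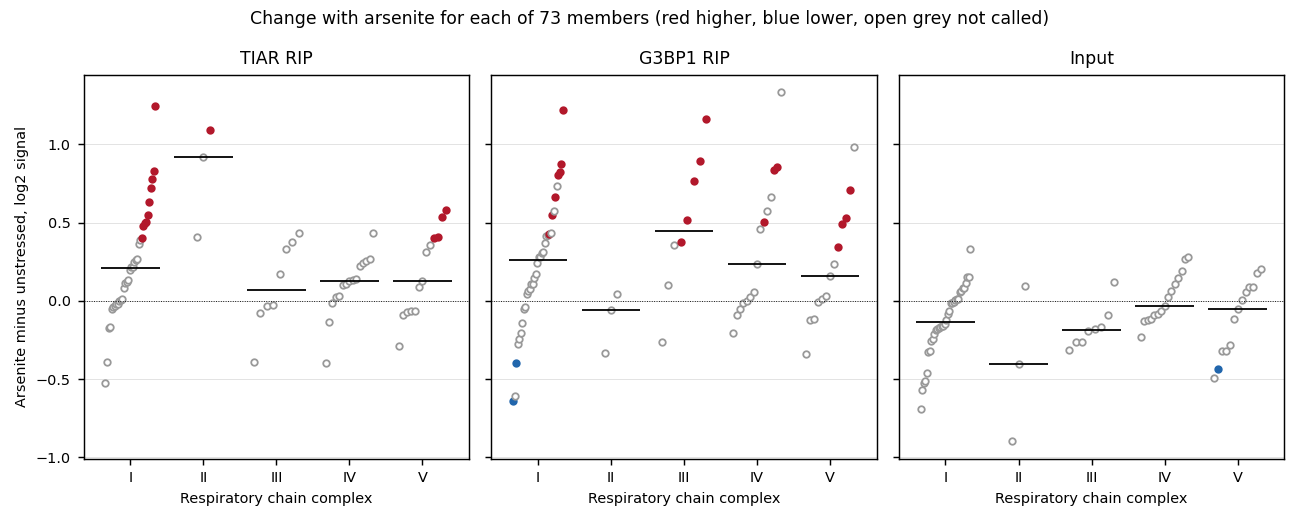
Change in log2 signal with arsenite for each of the 73 members, by complex, in the TIAR RIP, the G3BP1 RIP and input; black bars are medians over the members of a complex, and red and blue points passed limma's adjusted p under 0.05. Red points number 15 in the TIAR RIP and 19 in the G3BP1 RIP, while input holds 1 blue point.

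Whether the change with arsenite differed between a RIP and input was tested as an interaction. Against input, 1 member rose more in the TIAR RIP, NDUFA2 (log2 0.74, SE 0.14, adjusted p = 0.0345), and none rose less, against 0.604% and 0.05% of all rows. In the G3BP1 RIP 16 rose more than in input and 1, NDUFA9, less (14.3% and 2.65% of all rows; members' median 0.40). Complex III gave 5 of the 16, with UQCRQ at 1.25 (SE 0.31) and UQCR10 at 1.06 (SE 0.16), and complex I gave 8, with NDUFB7 at 1.31 (SE 0.30) and NDUFB9 at 1.07 (SE 0.27). Without the 2 outlying arrays, which lie on both sides of this contrast, 15 were higher and 7 lower and the median was 0.13. The shares of all rows in that fit were 13.1% and 9.79%, with UQCRQ at 0.76 and NDUFB9 at 0.67. With all arrays, 28.6% of the 8875 brighter rows were higher, a larger share than among the members, and their median was 0.28. For the TIAR RIP against input, no member was called once any unstressed TIAR RIP or unstressed input array, TIAR RIP stressed replicate 1 or 2, input stressed replicate 1, or G3BP1 RIP stressed replicate 1 or 3 was left out. Without G3BP1 RIP unstressed replicate 1 the count was 2, and without replicate 3 of that group it was 10.

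The change with arsenite differed between the TIAR and G3BP1 RIPs for 12 members, 6 in each direction. The shares higher and lower were 5.05% and 8.55% of all rows and 11.3% and 16.8% of the brighter rows. SDHA (1.04, SE 0.27), NDUFA9 (1.03, SE 0.15), NDUFAF7 (0.89, SE 0.25) and NDUFAF4 (0.76, SE 0.23) changed more upward in the TIAR RIP. UQCC2 (-1.16, SE 0.33), NDUFA7 (-0.90, SE 0.15), NDUFA11 (-0.82, SE 0.21) and ATP5PF (-0.78, SE 0.15) changed more upward in the G3BP1 RIP. Without G3BP1 RIP unstressed replicate 3 the count was 20. It was 5 without TIAR RIP unstressed replicate 3, 6 without TIAR RIP stressed replicate 1 or G3BP1 RIP stressed replicate 1, and 7 without TIAR RIP unstressed replicate 2.

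**Figure D5:**
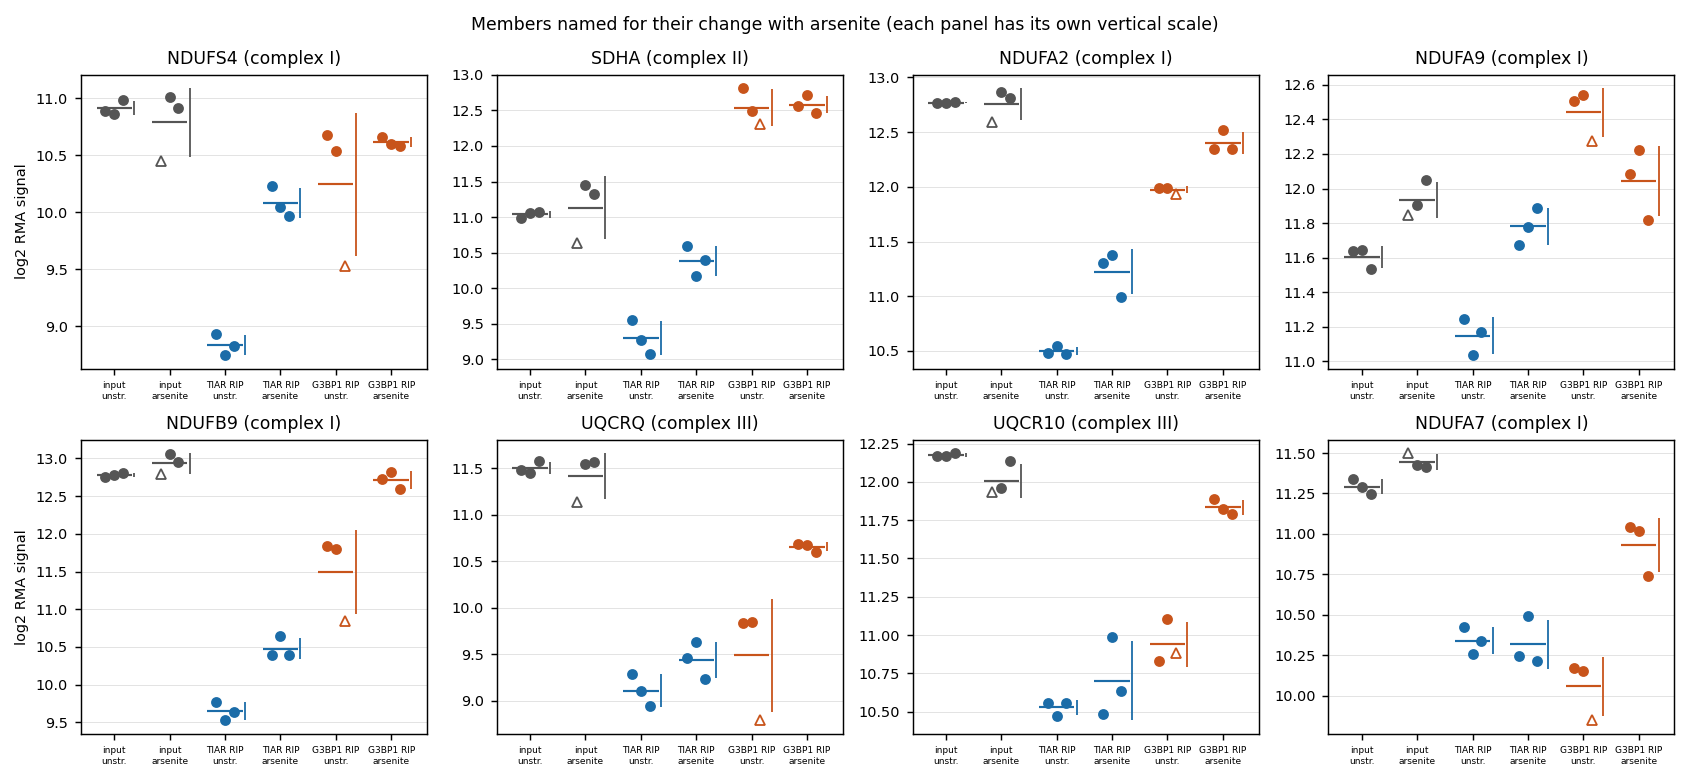
Log2 RMA signal of 8 members named for their change with arsenite, on each array in the 6 groups; points are arrays, horizontal bars means, vertical lines SD (n = 3), open triangles the 2 arrays that stood apart, with a separate scale for each panel. NDUFS4 and SDHA rise in the TIAR RIP, UQCRQ, UQCR10 and NDUFA7 in the G3BP1 RIP, NDUFA2 and NDUFB9 in both, and NDUFA9 rises in the TIAR RIP and falls in the G3BP1 RIP.

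Genes that serve the chain but fall outside the symbol rule gave these counts against input in unstressed cells, where 23.8% of all rows were lower and 16.8% higher in the TIAR RIP and 19.2% and 20.7% in the G3BP1 RIP. These shares apply to each list below. Of 11 other complex I assembly factors 7 were lower and 1 higher in the TIAR RIP, with the largest differences in DMAC1 (log2 -2.32, SE 0.18), TMEM126A (-1.67, SE 0.27) and ECSIT (-1.45, SE 0.12). Against input, 5 of them were lower and 4 higher in the G3BP1 RIP, among them ACAD9, which is also a fatty acid dehydrogenase (log2 1.69, SE 0.17), TMEM126A (-1.28, SE 0.27) and FOXRED1 (1.21, SE 0.11). Of 13 complex IV assembly factors 6 were lower and 1 higher in the TIAR RIP, with COX14 at -2.87 (SE 0.31), TACO1, a translational activator, at -1.57 (SE 0.22) and COX10, the heme farnesyltransferase, at 1.44 (SE 0.12). The G3BP1 RIP had 6 lower and 4 higher, with COX20 at -2.70 (SE 0.46), COX14 at -2.10 (SE 0.31) and LRPPRC, which stabilises mitochondrial mRNAs, at 1.67 (SE 0.22).

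Assembly factors of the other complexes were few. Of 3 for complex II, SDHAF2, which attaches the flavin to SDHA, was lower in the TIAR RIP (log2 -2.04, SE 0.20), as was SDHAF4, and all 3 were lower in the G3BP1 RIP. Of 3 for complex III, BCS1L was lower in the TIAR RIP (log2 -1.58, SE 0.18), and LYRM7 was higher there (0.65, SE 0.20) and lower in the G3BP1 RIP (-1.73, SE 0.20). Of 4 for complex V, 1 was lower in each RIP (ATPAF2 and DMAC2L). CYC1, cytochrome c1 of complex III, was lower in both (log2 -2.22, SE 0.16, and -0.75, SE 0.16), and CYCS was not called in either.

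Mitochondrial protein import brings these subunits in. Of 21 import genes 17 were lower and 1 higher in the TIAR RIP (23.8% and 16.8% of all rows), with TIMM10, a chaperone between the membranes, at -3.23 (SE 0.14), TIMM44 at -2.03 (SE 0.17) and TIMM21 at -2.02 (SE 0.27). For G3BP1, 10 were lower and 5 higher (19.2% and 20.7% of all rows), with the processing peptidase subunits PMPCB (1.87, SE 0.22) and PMPCA (1.39, SE 0.19) above input and TIMM10B (-1.42, SE 0.12) below it. Coenzyme Q synthesis genes were 6 lower and 2 higher of 12 in the TIAR RIP, led by COQ3 (-2.01, SE 0.43), COQ4 (-1.42, SE 0.11) and COQ9 (-1.25, SE 0.09). Their counts in the G3BP1 RIP were 2 lower (COQ4 and COQ2) and 5 higher, led by COQ8A (log2 1.52, SE 0.18).

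Regulators of respiratory gene transcription were few. Of 10 on the array 4 were lower and 3 higher than input in the unstressed TIAR RIP (23.8% and 16.8% of all rows), with PPARGC1A, the coactivator PGC-1alpha, higher (log2 1.75, SE 0.21) and ESRRA and TFB2M lower (each -0.81). After arsenite PPARGC1A was at 2.24 (SE 0.21). For G3BP1, 2 were lower and 3 higher (19.2% and 20.7% of all rows), with PPRC1, a related coactivator, at 1.16 (SE 0.12), TFAM, which packages mitochondrial DNA, at -1.08 (SE 0.19) and PPARGC1A at 0.67 (SE 0.21). Of the mitochondrially encoded subunits 2 had a row of their own. ND5 and ND6 were lower than input in the unstressed G3BP1 RIP (log2 -2.35, SE 0.12, and -1.38, SE 0.46), and ND5 rose there with arsenite (log2 1.54, SE 0.12).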

How the data were processed

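The authors' deposited values are log2 RMA signals made with Affymetrix Expression Console, per the submitters' processing notes: 22011 transcript clusters on 18 arrays. Which software release and probe-set level were used, and whether the arrays went through RMA in 1 run, was not given in the sources used here. Rows were named from the platform table. RefSeq tables (GRCh38.p14) gave names and promoter windows. The members and gene lists were chosen with earlier results of these data known.

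All rows and arrays entered 1 linear model with a mean for each of the 6 groups (lmFit and eBayes of limma 3.58.1 in R 4.3.3, no filter, no trend; 12 residual and 2.61 prior degrees of freedom). Moderated two-sided p-values were adjusted by Benjamini-Hochberg over 22011 rows in each of 12 comparisons and called under 0.05. The fit was tested on simulated data. A fold is the antilog of a log2 difference.

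Named members were, per comparison, up to 6 called a direction with the largest change whose arrays did not overlap (up to 4 for interactions), the members of highest and lowest mean in each complex, and a set of paralogs and catalytic subunits. NDUFS8, NDUFS7, UQCC1 and others outside this rule were picked after their values were seen. Alternatives were median centring, quantile normalization, leaving out the dimmest 25% of rows, an intensity trend with robust prior, a fit on the compared groups alone, a replicate block, another choice of row, and leaving out arrays. The number of arrays limits the precision. Replicates are labelled biological, with no further origin, so p-values measure the spread between these samples.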

Additional observations from a re-analysis of the deposited data

Results flagged for a closer look

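The change with arsenite differed between sample types, by the interaction test, in 14 results. Between the TIAR and G3BP1 RIPs they were NDUFA9 (log2 1.03), SDHA (1.04), NDUFAF7 (0.89) and NDUFAF4 (0.76), with the larger rise in the TIAR RIP, and UQCC2 (-1.16), NDUFA7 (-0.90), NDUFA11 (-0.82) and ATP5PF (-0.78), with the larger rise in the G3BP1 RIP. Between the TIAR RIP and input the gene was NDUFA2 (0.74). Between the G3BP1 RIP and input they were UQCRQ (1.25), NDUFB7 (1.31), NDUFB9 (1.07), UQCR10 (1.06) and NDUFA9 (-0.73). Without the 2 arrays that stood apart all of these kept their sign and passed the test, with NDUFB7 at 0.91, UQCRQ at 0.76 and NDUFB9 at 0.67. The NDUFA2 call was lost when any of several single arrays named above was left out. No formal test for a single outlying value was run within groups of 3 arrays.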

How the results depend on the processing

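Depletion from the TIAR RIP kept its direction, with counts within 1.5 times, under the alternatives tried: leaving out 1 array gave 54 to 58 called members in unstressed cells and 49 to 58 after arsenite. The same ranges were 47 to 52 and 25 to 43 for the G3BP1 RIP against input, 41 to 58 and 39 to 56 for the TIAR RIP against the G3BP1 RIP, and 10 to 22, 14 to 26 and 1 to 6 for arsenite in the TIAR RIP, the G3BP1 RIP and input. For the interactions they were 0 to 10 (TIAR RIP against input), 13 to 24 (G3BP1 RIP against input) and 5 to 20 (TIAR against G3BP1 RIP). Without both arrays that stood apart 27 members were called for arsenite in the TIAR RIP, 4 in input, 7 for the TIAR RIP interaction with input and 22 for that between the RIPs. Fitting only the compared groups gave 6 for arsenite in the G3BP1 RIP and 3 for the TIAR RIP interaction with input. Median centring, leaving out dim rows and the trend with robust prior each gave 2 for arsenite in input. For the TIAR RIP interaction with input, median centring and leaving out dim rows gave 2 and quantile normalization 3, and quantile normalization gave 19 between the RIPs. COX7A2L turned from 0.01 to -0.25 in the stressed G3BP1 RIP against input under quantile normalization (adjusted p = 0.0112). The causes were not tested.

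Replicate numbers did not pair the arrays: correlations of same-numbered arrays ran from -0.336 to 0.416, and 0 to 4 of 6 arrays correlated best with their own number. With the replicate as a block, 12 members rose with arsenite in the TIAR RIP and 18 in the G3BP1 RIP (where 2 fell), and 55 and 51 were lower in the TIAR RIP than in input. Choosing the row of widest spread for each gene changed no count. Signal near background limits what dim rows can show, and no control immunoprecipitation was analysed here.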

Other observations

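A further 26 rows carry a symbol of the rule beside other symbols and were kept out of the members, since their signal cannot be assigned to 1 gene. Of these, 15 were lower and 1 higher in the TIAR RIP than in input in unstressed cells (median -0.39; 23.8% and 16.8% of all rows), and 12 lower and 2 higher after arsenite (median -0.25; 23.5% and 20.3% of all rows). In the G3BP1 RIP 9 were lower and 4 higher in unstressed cells (19.2% and 20.7% of all rows) and 5 lower and 5 higher after arsenite (15.2% and 29.3%). With arsenite 4 rose and none fell in the TIAR RIP (6.15% and 5.71% of all rows). In the G3BP1 RIP 4 rose and 1 fell (10.4% and 4.08% of all rows), and in input none rose and 2 fell (2.52% and 11.2%).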
